A study of Mus musculus with 35 samples.

Results

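Megakaryocytes make platelets, and the genes described here code for proteins by which platelets bind the vessel wall and each other. The 9 genes, Itga2b, Itgb3, Pf4, Gp1bb, Gp5, Gp6, Gp9, Vwf and Selp, were taken by name, and all 9 were found among the 11982 gene names of the RNA-seq table. Pf4 codes for a granule chemokine and is not a membrane glycoprotein. The study deleted JMJD1B, a histone demethylase encoded by Kdm3b, and asked what its loss does to transcription in blood-forming stem and progenitor cells (HSPCs). Polyadenylated RNA of bone marrow HSPCs was sequenced in 2 WT and 2 JMJD1B-/- libraries. Both groups had the mixed strain 129P2xC57BL/6J, and the knockout was a gene trap that the mice carried in all tissues. The study used adult mice of both sexes, and the paper names age-matched littermates for the HSPCs of its chromatin experiments. The labels give neither the age, the sex nor the surface markers by which the HSPCs of each library were obtained.

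The members of the GPIb-IX-V complex hold platelets to von Willebrand factor on an injured vessel, GPVI binds collagen there, and the integrin of Itga2b and Itgb3 then binds fibrinogen and links platelets to each other. Alpha granules store PF4 and von Willebrand factor, and P-selectin moves from their membrane to the cell surface on activation. Megakaryocytes arise from HSPCs under thrombopoietin, and Itga2b, Vwf and Pf4 are also transcribed in stem and progenitor cells that lean to this lineage. In RNA of a bulk sample, fewer cells of a type and less RNA per cell cannot be told apart.

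Expression is given in RPKM, read counts scaled to the transcript's length and the library's mapped reads, which are values per length. Estimated from steps in the low values, the WT libraries had 17500000 and 24600000 reads, and the JMJD1B-/- libraries 6100000 and 21000000 reads, for replicates 1 and 2. A floor of 3 reads per kilobase came to 0.171, 0.122, 0.491 and 0.143 RPKM in the same order, and it covers counting error only. JMJD1B-/- replicate 1 was thus the shallowest library. Its RPKM was the lowest of the 4 libraries for 7 of the 9 genes, and the share of all genes lowest there was not counted. Whether depth had a part in this was not tested. Xist, transcribed from the inactive X chromosome, was at 332 RPKM in WT replicate 2 and at no more than 0.0510 RPKM elsewhere. Ddx3y, on the Y chromosome, was at 0.411 RPKM in WT replicate 2 and at 25.5 to 29.3 RPKM in the others. WT replicate 2 therefore stood apart in its sex-linked genes, which were looked up after the values were seen, and values without it are given below.

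Kdm3b, the targeted gene, had 31.0 and 24.3 RPKM in WT HSPCs, and 4.00 and 4.63 RPKM in JMJD1B-/- HSPCs. Both knockout libraries lay far below both WT libraries. Its level fell by 2.65 on the log2 scale (standard error 0.24, adjusted p = 0.0314 in limma). Kdm3b stayed between −2.67 and −2.42 in the other fits with all libraries, the latter with log2(RPKM + 1). Leaving out a library gave −2.82 to −2.47. When values were rescaled by median ratios or by quantiles, its adjusted p was above 0.05. It was also above 0.05 in limma without a trend and in a gene-by-gene test, where 0 genes of the whole table passed. Those tests therefore cannot set Kdm3b apart from other genes. Fold changes here and below are on the scale of log2(RPKM + 0.1), which understates those of low genes, and adjusted p-values are over all 11863 genes tested.

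Most of the 9 platelet genes were lower in JMJD1B-/- HSPCs than in WT HSPCs. In 7 of the 9 genes each JMJD1B-/- library was below each WT library, a pattern held by 22.7% of all genes tested, and 0 of the 9 had the opposite pattern, held by 20.1%. At an unadjusted p under 0.05 in limma, 6 of the 9 were lower, against 6.33% of all genes, and 0 were higher, against 3.81%. After adjustment 0 of the 9 passed a p of 0.05 in limma, where 4 genes (0.0337%) passed as lower and 1 gene (0.00843%) as higher over the whole table, and the adjusted p of the 9 lay between 0.203 and 0.983. A gene-by-gene test placed 2 of the 9, and 4.32% of all genes, as lower under an unadjusted p of 0.05, and 0 under an adjusted one. Because 0 genes of the whole table passed this test after adjustment, that 0 does not set the 9 genes apart. The median log2 fold change of the 9 genes was −0.87, and that of all genes tested was −0.025. The median of all genes was 0.087 without JMJD1B-/- replicate 1, −0.099 without JMJD1B-/- replicate 2 and 0.017 with quantile normalization. All 9 fold changes were below 0, as were 53.0% of all, although those of Gp1bb and Gp9 were −0.04 and −0.03 and turned to 0.10 and 0.0017 with quantile normalization. Over the table, 751 genes were lower and 452 higher at an unadjusted p under 0.05, a split of 62.4% lower that was 714 and 671 genes, or 51.6% lower, with quantile normalization. These table-wide counts moved with the libraries kept, to 190 lower and 127 higher without WT replicate 1, 282 and 247 without WT replicate 2, 1349 and 1367 without JMJD1B-/- replicate 1, and 1777 and 732 without JMJD1B-/- replicate 2.

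The count of 6 genes depended on the libraries and on the test. It was 3 without WT replicate 1, 3 without WT replicate 2, 5 when JMJD1B-/- replicate 1 was left out and 7 when JMJD1B-/- replicate 2 was. In the same order, 1.61%, 2.38%, 11.5% and 14.9% of all genes tested were lower in those fits. The count at an adjusted p under 0.05 was 0 without either WT library, 4 (Itgb3, Pf4, Gp6 and Vwf) without JMJD1B-/- replicate 1 and 6 (Itga2b, Pf4, Gp5, Gp6, Vwf and Selp) when JMJD1B-/- replicate 2 was left out. The table as a whole also gave more calls in the fits without a knockout library, with 653 genes lower (5.55%) without JMJD1B-/- replicate 1 and 431 (3.62%) without JMJD1B-/- replicate 2, against the 4 genes with all libraries. The median log2 fold change ranged from −1.0 to −0.73 over the 4 fits that each left out a library, and was −0.79 without WT replicate 2, which leaves 3 libraries with Ddx3y and without Xist. Without WT replicate 2 the log2 fold changes were −0.76 (Itga2b), −0.64 (Itgb3), −1.48 (Pf4), −0.79 (Gp5), −1.84 (Gp6), −0.93 (Vwf) and −1.24 (Selp). Those of Gp1bb and Gp9 were −0.10 and −0.39 in that fit. Leaving out a library leaves 1 library in a genotype, which is then taken to vary as the others do. The labels speak of 2 biological replicates, the p-values measure only the spread between these samples, and an exact permutation test of 2 against 2 libraries cannot give a two-sided p below 0.333.

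**Figure D1:**
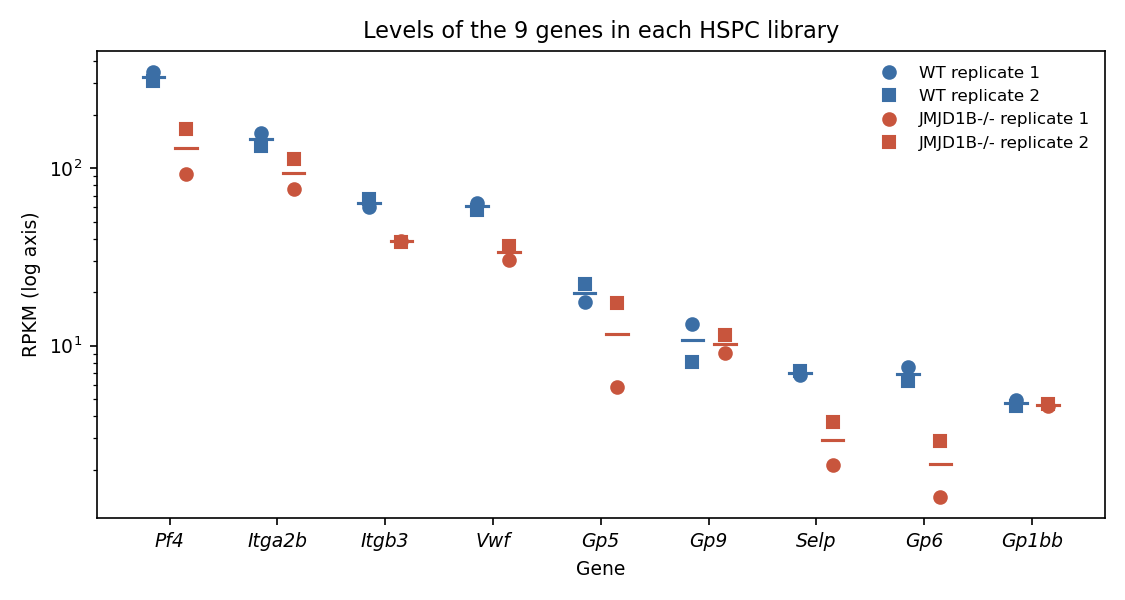
RPKM of the 9 genes (log axis) in each of the 4 HSPC libraries, with circles for replicate 1, squares for replicate 2 and short lines for the mean of each genotype. The genes are ordered by their WT mean, from Pf4 at 328 RPKM to Gp1bb at 4.77 RPKM, and the genotypes overlap only in Gp9 and Gp1bb.

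Itga2b and Itgb3 code for the alpha and beta chains of the platelet fibrinogen receptor. Itga2b had 157 and 133 RPKM in WT HSPCs, and 76.1 and 113 RPKM in JMJD1B-/- HSPCs. The genotypes did not overlap, and JMJD1B-/- replicate 2 lay nearer to the WT libraries than JMJD1B-/- replicate 1. The log2 fold change of Itga2b was −0.64 (standard error 0.23, adjusted p = 0.431 in limma). Leaving out JMJD1B-/- replicate 1 gave −0.36, and leaving out JMJD1B-/- replicate 2 gave −0.93.

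Itgb3 had 60.4 and 67.3 RPKM in WT HSPCs, and 38.8 and 38.4 RPKM in JMJD1B-/- HSPCs. The 2 knockout libraries were almost equal for this gene despite their different depths, and both lay below WT. The difference was −0.72 on the log2 scale (standard error 0.17, adjusted p = 0.258 in limma). Leaving out a library moved it to between −0.80 and −0.64. Because 1 chain of each kind forms the receptor, the ratio of the 2 levels was computed in each library. Itga2b over Itgb3 was 2.60 and 1.98 in WT, and 1.96 and 2.93 in JMJD1B-/- HSPCs, so that the ratio of the knockout libraries spanned that of the WT libraries.

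Von Willebrand factor is the multimeric ligand on which platelets are caught from flowing blood, and it is made by megakaryocytes and by endothelial cells. Vwf had 63.7 and 58.4 RPKM in WT HSPCs, and 30.5 and 36.4 RPKM in JMJD1B-/- HSPCs. The replicates of each genotype lay close together and the genotypes did not overlap. The difference came to −0.87 on the log2 scale (standard error 0.18, adjusted p = 0.211 in limma), with a range of −1.0 to −0.74 when libraries were left out.

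The receptor of von Willebrand factor is built from the products of Gp1ba, Gp1bb, Gp9 and Gp5. Gp1ba, which carries the binding site and is not one of the 9 genes, had 7.19 and 10.2 RPKM in WT and 4.20 and 6.08 RPKM in JMJD1B-/- HSPCs. Its libraries did not overlap between genotypes (log2 fold change −0.75, standard error 0.32, adjusted p = 0.489 in limma), and the difference was −0.49 without JMJD1B-/- replicate 1. Gp5, whose product is cleaved by thrombin, had 17.5 and 22.2 RPKM in WT and 5.85 and 17.3 RPKM in JMJD1B-/- HSPCs. The second knockout library was barely below WT replicate 1. The fold change of Gp5 therefore rested on JMJD1B-/- replicate 1, being −0.96 with all libraries (standard error 0.46, adjusted p = 0.535 in limma) and −0.19 without that library, against −1.74 when JMJD1B-/- replicate 2 was left out.

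In the 2 small subunits needed to bring the complex to the surface, the genotypes overlapped. Gp1bb had 4.96 and 4.58 RPKM in WT and 4.55 and 4.70 RPKM in JMJD1B-/- HSPCs, and the genotypes overlapped (log2 fold change −0.04, standard error 0.29, adjusted p = 0.977 in limma). Gp9 had 13.3 and 8.10 RPKM in WT and 9.03 and 11.4 RPKM in JMJD1B-/- HSPCs, with both knockout values between the WT values. Gp9 differed by −0.03 on the log2 scale (standard error 0.30, adjusted p = 0.983 in limma), and was 0.32 without WT replicate 1 and −0.39 without WT replicate 2. Standard errors of this size leave changes of Gp1bb and Gp9 by well over their size undetected. For comparison, Gp1ba at −0.75 with a standard error of 0.32 had an unadjusted p of 0.0474 in limma. In the RefSeq annotation Gp1bb overlaps Septin5, listed as Sept5 at 1.63, 1.33, 3.14 and 1.42 RPKM in the 4 libraries, and reads of the 2 genes could be shared.

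GPVI, the product of Gp6, is the main signalling receptor for collagen on platelets. Gp6 had 7.54 and 6.29 RPKM in WT HSPCs, and 1.41 and 2.91 RPKM in JMJD1B-/- HSPCs. Both knockout libraries were below WT, and the 1.41 RPKM of JMJD1B-/- replicate 1 stands for about 8.62 reads per kilobase. On the log2 scale Gp6 differed by −1.71 (standard error 0.41, adjusted p = 0.258 in limma), with values of −2.21 to −1.21 when libraries were left out. This was the most negative value of the 9 genes, except that Pf4 was more negative with log2(RPKM + 1), at −1.39 against −1.36, and with quantile normalization, at −1.64 against −1.60.

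P-selectin, the product of Selp, lets activated platelets and endothelium bind leukocytes. Selp is also among the genes that the study displayed from these libraries, as are Ptgs1, Mecom, Cxcl5 and Actn1 of the lists described further on, so their direction here is not independent of that choice. It had 6.79 and 7.16 RPKM in WT HSPCs, and 2.12 and 3.73 RPKM in JMJD1B-/- HSPCs. The WT libraries were close to each other and above both knockout libraries. Its difference was −1.28 on the log2 scale (standard error 0.36, adjusted p = 0.335 in limma). With libraries left out it ran from −1.67 without JMJD1B-/- replicate 2 to −0.88 without JMJD1B-/- replicate 1. The long non-coding gene Gm16548 overlaps Selp in RefSeq, and reads of the 2 genes could be shared. Gm16548 was at 0.414 and 0.183 RPKM in WT and at 1.84 and 0 RPKM in JMJD1B-/- HSPCs, so that in JMJD1B-/- replicate 1, the lowest library of Selp, the levels of the 2 genes were close.

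PF4 is a chemokine of the alpha granule and binds heparin. Pf4 was the most abundant of the 9 genes, at 348 and 308 RPKM in WT HSPCs, and 92.8 and 167 RPKM in JMJD1B-/- HSPCs. The lower WT library was well above the higher knockout library. The log2 fold change of Pf4 was −1.39 (standard error 0.28, adjusted p = 0.203 in limma). Leaving out JMJD1B-/- replicate 1 gave −0.97, and leaving out JMJD1B-/- replicate 2 gave −1.82. Pf4 made up 51.2% and 50.0% of the summed RPKM of the 9 genes in the WT libraries, and 35.5% and 42.3% in the JMJD1B-/- libraries. The sums were 679 and 615 RPKM in WT, and 261 and 394 RPKM in JMJD1B-/- HSPCs.

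**Figure D2:**
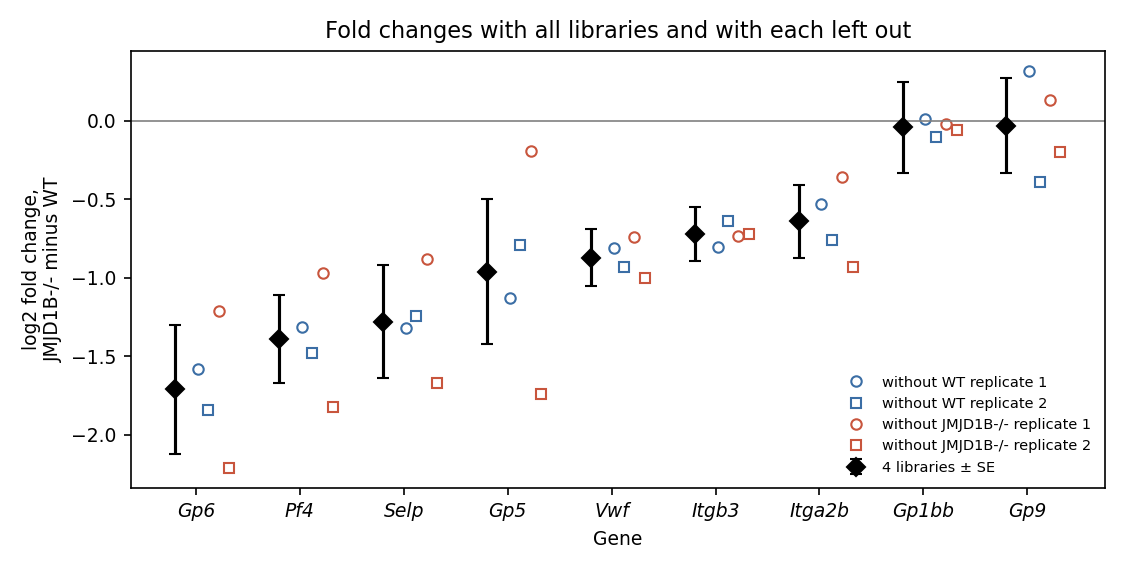
log2 fold change of each of the 9 genes (JMJD1B-/- minus WT) with all 4 libraries (diamonds, bars are ± 1 standard error from limma) and with each library left out (open symbols). Gp6 lies at −1.71, Gp1bb and Gp9 lie near 0, and Gp5 moves from −0.96 to −0.19 without JMJD1B-/- replicate 1.

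In the order of WT levels, Pf4 (328 ± 28.3 RPKM, SD, n = 2) was followed by Itga2b (145 ± 16.5), Itgb3 (63.8 ± 4.91), Vwf (61.1 ± 3.70), Gp5 (19.8 ± 3.33), Gp9 (10.7 ± 3.67), Selp (6.98 ± 0.260), Gp6 (6.92 ± 0.883) and Gp1bb (4.77 ± 0.269). The WT libraries of Itgb3 and Vwf overlapped, as did those of Selp and Gp6, and other neighbours in this order did not. In JMJD1B-/- HSPCs, Pf4 had 129.8 ± 52.4 RPKM (SD, n = 2) and overlapped with Itga2b at 94.3 ± 25.8 RPKM. Gp5 and Gp9 overlapped there at 11.6 ± 8.09 and 10.2 ± 1.67 RPKM, and Gp1bb, last in WT, stood above Selp and Gp6. Pf4 lay above 98.9% of the listed genes in WT HSPCs, and Gp1bb above 29.1%.

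The median absolute log2 difference between replicates was 0.18 in WT and 0.56 in JMJD1B-/- HSPCs over the 9 genes, and 0.22 and 0.36 over all genes tested. The knockout libraries thus differed more than the WT libraries over the whole table as well. Between the knockout libraries the 9 genes differed more than all genes did, and between the WT libraries less. Of the 9 genes, 6 were higher in WT replicate 1 than in WT replicate 2, with a median difference of 0.12 on the log2 scale, and 1 was higher in JMJD1B-/- replicate 1 than in JMJD1B-/- replicate 2, with a median difference of −0.56. Over all genes tested these signed medians were −0.005 and −0.178. The mean profile of the 9 genes, as log2 values centred on each gene's own mean, was 0.48 and 0.37 in the WT libraries and −0.72 and −0.13 in the JMJD1B-/- libraries. The 5 genes closest to it by Euclidean distance over the 4 libraries were Slc36a1 (distance 0.059), Rtkn2 (0.073), Gm9079 (0.077), Zfp940 (0.087) and 1700056E22Rik (0.090). In JMJD1B-/- replicate 1, Gm9079 was at 0.648 RPKM and 1700056E22Rik at 0.508 RPKM, near the floor of 0.491 RPKM of that library. Slc36a1, an amino acid transporter gene, had 6.19 and 5.50 RPKM in WT and 2.63 and 3.85 RPKM in JMJD1B-/- HSPCs.

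Other surface receptors of platelets were lower in part. Wholly below or above WT is said here of a gene whose JMJD1B-/- libraries are each below, or each above, each WT library. A further limit is that each listed gene reaches 1 RPKM in at least 1 library, so that a gene low in all 4 libraries is not listed, and a gene that reaches it in a single genotype was listed through its high values there. Each of the 9 platelet genes reached 1 RPKM in both genotypes. The counts of each list stand against the shares over all genes, 6.33% lower and 3.81% higher at an unadjusted p under 0.05, 22.7% wholly below WT and 20.1% wholly above. Of 27 genes, 25 were tested, 9 were lower and 1 higher at an unadjusted p under 0.05 in limma, 0 passed after adjustment, 14 lay wholly below WT and 2 wholly above, and the median log2 fold change was −0.51. Clec1b, the receptor for podoplanin, had 38.2 and 51.7 RPKM in WT and 11.8 and 13.5 RPKM in JMJD1B-/- HSPCs (log2 fold change −1.81, standard error 0.22, adjusted p = 0.064 in limma). It was the lowest adjusted p of this list, and missed the threshold. Itga6, a laminin receptor chain, had 62.1 and 62.0 RPKM in WT and 33.6 and 25.0 RPKM in JMJD1B-/- HSPCs. In the other direction, the tetraspanin gene Cd82 had 19.1 and 24.0 RPKM in WT and 41.1 and 42.9 RPKM in JMJD1B-/- HSPCs (log2 fold change 0.97, adjusted p = 0.203 in limma). Itgb1, the most abundant gene of the list by its mean over the 4 libraries, as such ranks are given throughout, overlapped between genotypes (0.30 on the log2 scale, and 0.07 to 0.52 when libraries were left out). Jam3 and Adra2a were not analysed here.

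Granule genes were lower in part as well. Of 24 genes of granule cargo and granule assembly, 22 were tested, and 10 were lower and 0 higher at an unadjusted p under 0.05 in limma, with 0 past the adjusted threshold. In 16 of them the JMJD1B-/- libraries lay wholly below WT, and the median log2 fold change was −0.83. Sparc, Pdgfa, Cxcl5 and Gas6 reached 1 RPKM only in WT HSPCs. Of the other 18 genes, 9 were lower at an unadjusted p under 0.05, 14 lay wholly below WT, and the median was −0.72. Ppbp, a chemokine gene next to Pf4, had 90.8 and 102 RPKM in WT and 52.6 and 41.7 RPKM in JMJD1B-/- HSPCs. F13a1, which codes for the fibrin-crosslinking factor XIII A chain and is also made by monocytes, had 19.0 and 23.5 RPKM in WT and 6.43 and 2.59 RPKM in JMJD1B-/- HSPCs. Unlike Pf4, both genes were lower in JMJD1B-/- replicate 2 than in JMJD1B-/- replicate 1. Clu, for the chaperone clusterin, was lower by log2 fold change, at −1.04 (adjusted p = 0.211 in limma). Srgn, the granule proteoglycan of many blood cells and the most abundant of the list, had 191 and 235 RPKM in WT and 189.6 and 159 RPKM in JMJD1B-/- HSPCs. Timp1 was not analysed here.

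Genes that carry the signal from these receptors were tested in 24 of 24 cases. At an unadjusted p under 0.05 in limma, 14 were lower and 0 higher, 0 passed after adjustment, 20 lay wholly below WT, and the median log2 fold change was −0.53. Plcg2, the phospholipase downstream of GPVI, had 50.2 and 41.9 RPKM in WT and 21.4 and 22.3 RPKM in JMJD1B-/- HSPCs (log2 fold change −1.07, adjusted p = 0.159 in limma). Its 2 knockout libraries were nearly equal. The adaptor gene Skap2 and Rgs18, a regulator of G-protein signalling in platelets, had log2 fold changes of −0.91 and −0.86. Rap1b, the small GTPase that activates the fibrinogen receptor, was the most abundant of the list, with 274 and 278 RPKM in WT and 178 and 215 RPKM in JMJD1B-/- HSPCs. Several of these genes, Plcg2 and Skap2 among them, are also expressed in other blood cells.

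Enzymes and receptors of eicosanoids and nucleotides were lower in 4 of 9 genes at an unadjusted p under 0.05 and higher in 0 in limma, with 0 after adjustment, 7 of 9 wholly below WT and a median log2 fold change of −0.78, which was −0.49 without JMJD1B-/- replicate 1. Hpgds reached 1 RPKM only in WT HSPCs, and of the other 8 genes 4 were lower, 7 lay wholly below WT, and the median was −0.82. Ptgs1, the cyclooxygenase of platelets, had 24.3 and 16.4 RPKM in WT and 7.46 and 14.2 RPKM in JMJD1B-/- HSPCs. Tbxas1, thromboxane synthase, had 40.2 and 27.8 RPKM in WT and 13.3 and 25.5 RPKM in JMJD1B-/- HSPCs. In both genes JMJD1B-/- replicate 2 was close to WT replicate 2, and without JMJD1B-/- replicate 1 their log2 fold changes of −0.95 and −0.86 were −0.49 and −0.39. Alox12, the platelet lipoxygenase, was at −0.99 on the log2 scale (adjusted p = 0.386 in limma).

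Of 22 genes of the cytoskeleton by which megakaryocytes extend proplatelets, 21 were tested, and 8 were lower and 0 higher at an unadjusted p under 0.05 in limma, with 0 past the adjusted threshold. For 14 genes the JMJD1B-/- libraries lay wholly below WT, and the median log2 fold change was −0.49, which was −0.32 without JMJD1B-/- replicate 2. Tpm1, a tropomyosin gene, had 49.3 and 42.8 RPKM in WT and 22.5 and 20.6 RPKM in JMJD1B-/- HSPCs (log2 fold change −1.09, adjusted p = 0.155 in limma). Tubb2a, a beta tubulin gene, and Zyx, of focal adhesions, had log2 fold changes of −0.96 and −0.73. Cfl1, the abundant actin-severing factor of nearly all cells, had 294 and 351 RPKM in WT and 357 and 285 RPKM in JMJD1B-/- HSPCs, with full overlap. Ablim3 was not analysed here.

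Transcription factors of the megakaryocyte lineage had a smaller share of lower genes than the lists above. Of 23 genes, 4 were lower and 2 higher at an unadjusted p under 0.05 in limma, 0 passed after adjustment, 9 lay wholly below WT and 4 wholly above, and the median log2 fold change was −0.30, which was −0.14 without WT replicate 1 and −0.17 without JMJD1B-/- replicate 1. The 9 genes wholly below WT were 39.1% of the list, and the 4 wholly above were 17.4%, under the 20.1% of all genes. At an unadjusted p under 0.05 in limma, the 2 higher genes were 8.70% of the list, above the 3.81% of all genes. The 2 higher genes serve both the erythroid and the megakaryocyte lineage. Gata1 had 32.8 and 35.9 RPKM in WT and 44.5 and 63.6 RPKM in JMJD1B-/- HSPCs (log2 fold change 0.63, adjusted p = 0.425 in limma). Gfi1b had 24.3 and 23.2 RPKM in WT and 35.5 and 50.7 RPKM in JMJD1B-/- HSPCs (log2 fold change 0.84, adjusted p = 0.309 in limma). Neither gene overlapped between genotypes, and Gata1 was at 0.37 without JMJD1B-/- replicate 2. Cbfb, the partner of Runx1, had a log2 fold change of −0.56, and Myb, the most abundant gene of the list, had 191 and 185 RPKM in WT and 137 and 211 RPKM in JMJD1B-/- HSPCs.

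With all libraries, genes of thrombopoietin signalling had a median nearer to that of all genes than the transcription factors had. Without JMJD1B-/- replicate 1 the order turned, at −0.29 against −0.17, and without WT replicate 1 both medians were −0.14. Of 13 genes, 2 were lower and 0 higher at an unadjusted p under 0.05 in limma, 0 passed after adjustment, 5 lay wholly below WT and 1 wholly above, and the median log2 fold change was −0.25, which was −0.14 without WT replicate 1. With 13 genes, the 2 lower genes were 15.4% of the list against 6.33% of all genes and the 5 wholly below WT were 38.5% against 22.7%, differences of few genes. The 2 lower genes were Stat3 (log2 fold change −0.56) and Sh2b3, an inhibitor of this pathway (−0.67). Jak2, a kinase of many cytokine pathways, had 50.9 and 53.4 RPKM in WT and 38.8 and 41.4 RPKM in JMJD1B-/- HSPCs.

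**Figure D3:**
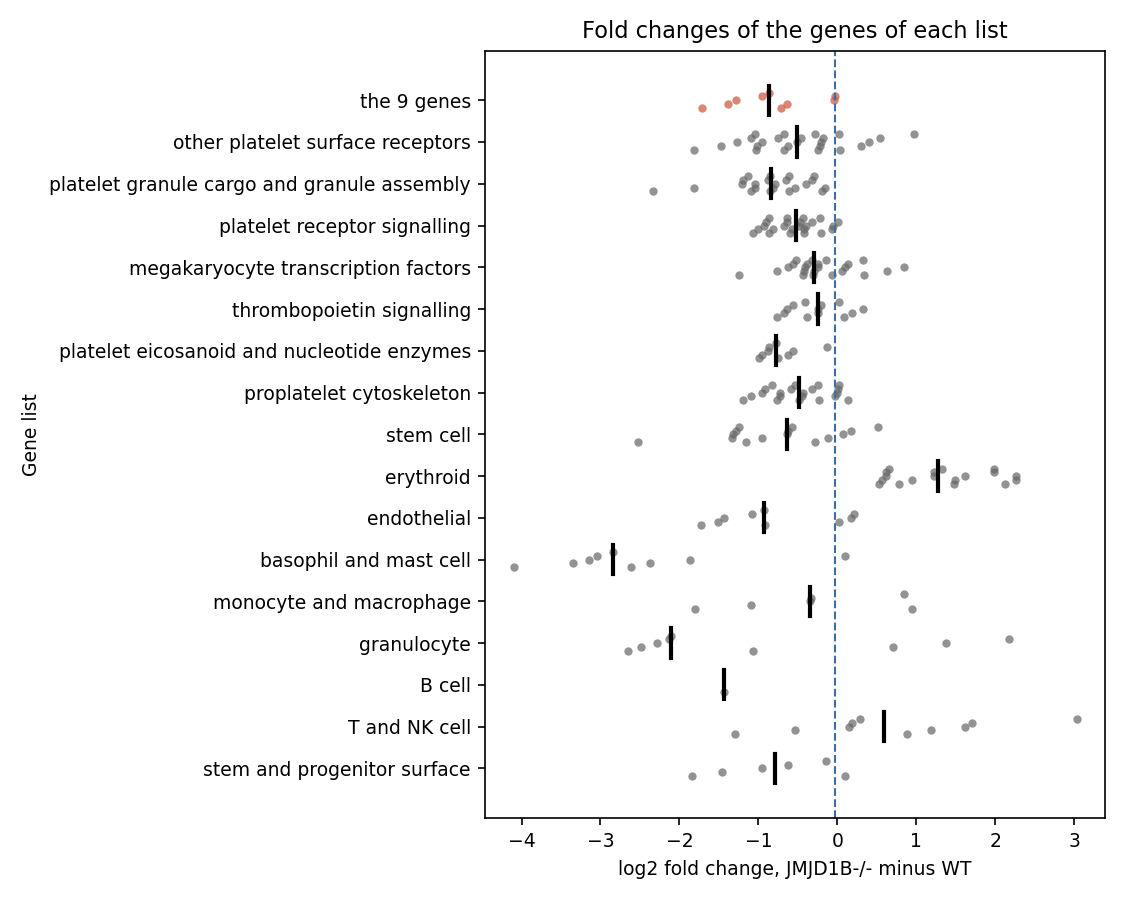
log2 fold change (JMJD1B-/- minus WT) of each tested gene of the 9 platelet genes, the 7 pathway lists and the 9 marker lists, with black bars for the median of a list and a dashed line for the median of all genes tested (−0.025). The median of the 9 platelet genes is −0.87, and those of the erythroid and of the basophil and mast cell markers are 1.27 and −2.84.

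Markers of other cell types also differed between the genotypes. Of 18 erythroid markers, 0 were lower and 15 higher at an unadjusted p under 0.05, 16 lay wholly above WT, and the median log2 fold change was 1.27. Their summed level was 1042 and 1498 RPKM in WT and 2644 and 3951 RPKM in JMJD1B-/- HSPCs. Hba-a1 and Hba-a2 had the same log2 fold change, 2.26, and so had Hbb-b1 and Hbb-b2, at 1.98. Each gene of these pairs enters the sum and the counts, although reads of a pair could be shared. Car1, a carbonic anhydrase gene and the most abundant by its mean over the 4 libraries, had 223 and 357 RPKM in WT and 707 and 706 RPKM in JMJD1B-/- HSPCs. Car2, of the same family, had 259 and 324 RPKM in WT and 640.4 and 709 RPKM in JMJD1B-/- HSPCs, and exceeded Car1 in the first WT and the second knockout library. Cldn13 and Car2 had log2 fold changes of 1.48 and 1.22, with 0 erythroid genes at an adjusted p under 0.05 in limma. Hba-a2, which shares reads with its near-identical copy Hba-a1, was listed at 42.3 and 52.8 RPKM in WT and 140.2 and 368 RPKM in JMJD1B-/- HSPCs. The part of a different share of erythroid cells in the lower platelet genes was not tested.

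Basophil and mast cell markers and genes of early granulocytes were lower. Of 14 basophil and mast cell genes 9 were tested, 8 were lower at an unadjusted p under 0.05 and 8 lay wholly below WT, with a median log2 fold change of −2.84, which was −1.89 without JMJD1B-/- replicate 2. The tested genes include Kit, also in the list of stem and progenitor genes, with a log2 fold change of 0.10. Kit had 66.9 and 62.5 RPKM in WT and 51.6 and 92.7 RPKM in JMJD1B-/- HSPCs. With Kit, the sum over the 9 genes was 578 and 648 RPKM in WT and 165 and 139.9 RPKM in JMJD1B-/- HSPCs. Prss34, a basophil protease and the most abundant of them in the WT libraries, fell from 246 and 258 RPKM to 30.6 and 19.9 RPKM (log2 fold change −3.35, adjusted p = 0.00637 in limma). Ms4a2, Cd200r3 and Il6 had log2 fold changes of −3.04, −4.10 and −3.15, and without Il6, which reached 1 RPKM only in WT HSPCs, 7 of 8 genes were lower, 7 lay wholly below WT, and the median was −2.73. Il4, Cma1, Tpsb2, Tpsab1 and Mcpt4 were not analysed here. Of 14 granulocyte genes, 9 were tested, 6 were lower and 2 higher at an unadjusted p under 0.05, the median was −2.11, and the sum over the 11 listed genes was 298 and 206 RPKM in WT and 91.1 and 57.5 RPKM in JMJD1B-/- HSPCs. This median was −1.07 without the filter, which adds Ltf and Camp, both with a higher mean in JMJD1B-/- HSPCs, and it was −1.42 without WT replicate 1, −1.73 without WT replicate 2 and −1.09 without JMJD1B-/- replicate 2. Prtn3, a granule protease, fell by 2.11 on the log2 scale (adjusted p = 0.04998 in limma), and Mpo, the most abundant, and Ms4a3 had −2.65 and −2.49. S100a9, of mature neutrophils, had 2.79 and 1.41 RPKM in WT and 8.01 and 10.8 RPKM in JMJD1B-/- HSPCs. The adjusted p of Prss34 and of Prtn3 was above 0.05 with both other scalings. The same held without limma's trend and in the gene-by-gene test, where 0 genes of the whole table passed. That of Prtn3 was also above 0.05 with log2(RPKM + 0.01) and with a mean of at least 1 RPKM. In each fit run, the log2 fold change lay between −3.65 and −3.04 for Prss34 and between −2.28 and −1.95 for Prtn3. Lcn2, Mmp8 and Mmp9 were not analysed here. The part of these cells in the values of the platelet genes was not tested.

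Endothelial cells also transcribe Vwf and Selp. Of 18 endothelial markers 9 were tested, and 2 were lower and 0 higher at an unadjusted p under 0.05 in limma, 4 lay wholly below WT, and the median log2 fold change was −0.93. Emcn and Stab2 reached 1 RPKM only in WT replicate 2, and of the other 7 genes 2 were lower, 3 lay wholly below WT, and the median was −0.93. The sum over all 9 tested markers was 86.3 and 74.4 RPKM in WT and 48.7 and 58.7 RPKM in JMJD1B-/- HSPCs. Pecam1, the most abundant of them except in JMJD1B-/- replicate 2 and also a platelet and leukocyte protein, had 34.0 and 33.9 RPKM in WT and 19.5 and 7.97 RPKM in JMJD1B-/- HSPCs (log2 fold change −1.44, and −0.79 without JMJD1B-/- replicate 2). Tek and Tie1, which code for a pair of related receptor kinases and are also expressed in stem cells, had log2 fold changes of −0.93 and −1.08. Tie1 overlapped between genotypes and was at −0.47 without WT replicate 1 and −0.56 without JMJD1B-/- replicate 1. Eng, Egfl7 and Plvap, named after their values were seen, went the other way, with log2 fold changes of 0.02, 0.21 and 0.17, and Eng had 16.7 and 13.4 RPKM in WT and 10.6 and 21.4 RPKM in JMJD1B-/- HSPCs. Cdh5, Flt1, Flt4, Cldn5, Sox17, Sox18, Mmrn2, Lyve1 and Ramp2 were not analysed here. Whether endothelial RNA had a part in the values of Vwf and Selp was not tested.

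The progenitor identity of the samples was read from its markers. Of 16 stem cell markers 15 were tested, 3 were lower and 0 higher at an unadjusted p under 0.05 in limma, 7 lay wholly below WT and 1 wholly above, the median log2 fold change was −0.64, and their sum was 121 and 101 RPKM in WT and 70.6 and 93.7 RPKM in JMJD1B-/- HSPCs. Meis1, the most abundant, had 53.9 and 39.7 RPKM in WT and 24.1 and 37.4 RPKM in JMJD1B-/- HSPCs, and Ctnnal1 and Mecom had log2 fold changes of −1.33 and −1.24. Without JMJD1B-/- replicate 1, Meis1 moved from −0.62 to −0.30 and Ctnnal1 to −0.76. Procr, Fgd5 and Robo4 reached 1 RPKM only in WT HSPCs, and of the other 12 genes 3 were lower, 4 lay wholly below WT, and the median was −0.60. Hoxb5 was not analysed here, and 4 of the stem cell genes are also in other lists. Among 6 genes of stem and progenitor cells, a list written after the table had been seen, Myb was the most abundant and 3, Cd34, Flt3 and Cd48, were lower at an unadjusted p under 0.05. Cd34 had 42.9 and 43.5 RPKM in WT and 20.9 and 11.7 RPKM in JMJD1B-/- HSPCs, and Kit, the receptor of stem cell factor, had 66.9 and 62.5 RPKM in WT and 51.6 and 92.7 RPKM in JMJD1B-/- HSPCs. Ly6a, the Sca-1 gene of the most immature cells, was low in all libraries, between 0.629 and 2.96 RPKM. The median of these 6 genes was −0.79, or −1.33 without JMJD1B-/- replicate 1 and −0.41 without JMJD1B-/- replicate 2, and their sum was 366, 377, 264 and 343 RPKM in the order of WT replicates 1 and 2 and JMJD1B-/- replicates 1 and 2.

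The remaining markers were those of monocytes and lymphocytes. The 6 of 12 monocyte and macrophage genes that were tested had a median log2 fold change of −0.34, with 2, Csf1r and Ly6c2, lower at an unadjusted p under 0.05, and Ly6c2, the most abundant, had 34.0 and 16.5 RPKM in WT and 16.6 and 7.42 RPKM in JMJD1B-/- HSPCs. That median was −1.17 without JMJD1B-/- replicate 1, −0.01 without JMJD1B-/- replicate 2, −0.22 without WT replicate 2, −0.72 with a mean of at least 1 RPKM, −0.18 with log2(RPKM + 1) and −0.05 with quantile normalization. Cd163 and C1qb reached 1 RPKM only in JMJD1B-/- HSPCs, and of the other 4 genes 2 were lower, 1 lay wholly below WT, and the median was −0.72. The sum over all 6 tested genes was 51.9 and 30.8 RPKM in WT and 37.9 and 14.8 RPKM in JMJD1B-/- HSPCs. Emr1, a macrophage marker, was highest in JMJD1B-/- replicate 1, against 1.61 RPKM in the second and 5.05 and 1.06 RPKM in WT, and its log2 fold change of 0.95 was −0.51 without that library and −0.12 without WT replicate 2. Mrc1, C1qa, C1qc, Fcgr1 and Mertk were not analysed here. The 10 T and NK cell genes summed to 27.6 and 37.6 RPKM in WT, 73.5 RPKM in JMJD1B-/- replicate 1 and 16.8 RPKM in JMJD1B-/- replicate 2. Of these, 1 was lower and 2, Cd3g and Cd3e, were higher at an unadjusted p under 0.05, the median was 0.59 (−0.04 without JMJD1B-/- replicate 1, 1.82 without JMJD1B-/- replicate 2 and 1.09 without WT replicate 2), and Nkg7, the most abundant except in JMJD1B-/- replicate 1, had a log2 fold change of −1.30. Cd3g had 0.444 and 0.474 RPKM in WT, and 11.7 and 1.66 RPKM in JMJD1B-/- HSPCs. Cd3d and Cd3g reached 1 RPKM only in JMJD1B-/- HSPCs, and of the other 8 genes 1 was lower, 1, Cd3e, was higher, and the median was 0.24. Of 8 B cell genes 1 was tested, Cd79b, at 3.28 and 1.99 RPKM in WT and 1.22 and 0.631 RPKM in JMJD1B-/- HSPCs, and Cd79a, Ms4a1, Pax5, Ebf1, Vpreb1 and Igll1 were not analysed here. The part of these cells in the platelet genes was not tested.

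Promoters were also read for motifs of GATA and ETS factors, which drive many megakaryocyte genes. RefSeq sequences of build GRCm38.p6, from 250 bases before to 50 bases after the gene start, were given for 7 of the 9 genes, and Itgb3 and Vwf were not analysed here. Searched on both strands were 4 forms of the GATA motif, AGATAA as the first, AGATAG as the second, TGATAA as the third and TGATAG as the last, and the ETS motif as CCGGAA or, in its other form, CAGGAA. No GATA motif overlaps an ETS motif in the promoters shown. A GATA motif was in 4 of the 7 promoters and in 29.8% of all 32851 promoters of that length, and an ETS motif was in 2 of the 7 and in 41.4% of all. A match is a description of letters and not a site of binding.

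Itga2b (chr11:102469834-102470133, minus strand) holds an ETS motif 52 bases before the start, and Pf4 (chr5:90772185-90772484, plus strand) holds an ETS motif at base 15 and a GATA motif at base 37 after it. Gp6 (chr7:4397695-4397994, minus strand) holds 1 GATA motif that begins 144 bases before the start. Gp5 (chr16:30310732-30311031, minus strand) holds 3, which begin 115, 93 and 77 bases before the start, and Gp1bb (chr16:18622354-18622653, minus strand), whose level overlapped between the genotypes, holds 1 that begins 22 bases before the start. Gp9 and Selp had no match in this window. Only promoters with a match are shown, and Gp1bb is the only gene among them whose level overlapped between the genotypes. Each sequence runs 5′ to 3′ in the direction of the gene, with the motifs in capitals.
Itga2b: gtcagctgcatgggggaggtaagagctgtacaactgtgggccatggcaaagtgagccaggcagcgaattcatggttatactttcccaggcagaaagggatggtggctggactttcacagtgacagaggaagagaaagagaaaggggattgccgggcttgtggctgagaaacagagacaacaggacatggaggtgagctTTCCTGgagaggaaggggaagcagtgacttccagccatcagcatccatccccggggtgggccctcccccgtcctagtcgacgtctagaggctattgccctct
Pf4: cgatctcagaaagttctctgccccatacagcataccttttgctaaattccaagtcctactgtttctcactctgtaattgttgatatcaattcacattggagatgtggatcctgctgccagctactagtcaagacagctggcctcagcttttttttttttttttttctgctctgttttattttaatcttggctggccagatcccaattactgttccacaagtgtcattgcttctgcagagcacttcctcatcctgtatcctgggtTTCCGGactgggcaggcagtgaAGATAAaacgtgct
Gp6: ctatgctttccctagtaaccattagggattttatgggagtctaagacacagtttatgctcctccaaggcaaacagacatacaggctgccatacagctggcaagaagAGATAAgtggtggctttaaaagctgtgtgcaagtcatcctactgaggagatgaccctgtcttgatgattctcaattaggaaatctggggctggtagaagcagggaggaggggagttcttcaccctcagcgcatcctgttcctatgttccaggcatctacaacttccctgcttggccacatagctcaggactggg
Gp5: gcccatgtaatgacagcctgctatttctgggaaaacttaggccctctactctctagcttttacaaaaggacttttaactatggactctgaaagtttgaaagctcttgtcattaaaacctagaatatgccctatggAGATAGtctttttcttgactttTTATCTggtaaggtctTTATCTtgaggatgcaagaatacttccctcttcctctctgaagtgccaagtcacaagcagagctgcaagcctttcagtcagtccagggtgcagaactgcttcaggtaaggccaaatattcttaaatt
Gp1bb: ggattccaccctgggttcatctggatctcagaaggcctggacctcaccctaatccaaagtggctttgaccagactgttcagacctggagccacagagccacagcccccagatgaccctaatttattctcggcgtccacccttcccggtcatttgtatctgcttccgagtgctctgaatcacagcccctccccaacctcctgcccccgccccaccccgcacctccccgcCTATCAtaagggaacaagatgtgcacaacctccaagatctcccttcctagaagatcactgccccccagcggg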

How the data were processed

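Polyadenylated RNA of bone marrow HSPCs was sequenced by the authors with a TruSeq kit, in 2 WT and 2 JMJD1B-/- libraries. In the submitters' processing notes, reads were aligned with Novoalign and TopHat2 to mm9, and the authors deposited 1 table of RPKM values, to each of which 1 had been added. This 1 was subtracted. Each listed gene reaches at least 1 RPKM in 1 library or more. The 12024 entries hold 11982 gene names, and the 42 names with more than 1 entry were averaged. Depth was estimated with Python 3.11.15 (numpy 2.4.6, pandas 2.3.3) from values under 3 RPKM, whose ratios between libraries are ratios of whole numbers. Genes with a mean of at least 0.5 RPKM, 11863 in all, were fitted as log2(RPKM + 0.1) in limma 3.58.1 under R 4.3.3 with a mean-variance trend, two-sided tests and Benjamini-Hochberg adjustment over all genes, at a threshold of 0.05. The fit was tested on simulated data. Figures were drawn with matplotlib 3.10.9.

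The 9 genes, the 7 pathway lists and the 9 marker lists were chosen with earlier results of these data known, and 1 marker list, of stem and progenitor genes, was added after the table was seen. Genes were matched by name, and 2 by a synonym. Named are the 9 genes, Kdm3b, Gp1ba, from each list the genes at an adjusted p under 0.05, the 3 of lowest p with a mean of at least 1 RPKM and the most abundant, and the 5 genes of most similar profile. Sex-linked and overlapping genes, Eng, Egfl7, Plvap, Kit, Ly6a and the genes not analysed were added by hand. Overlaps with other genes, and promoters, come from RefSeq on GRCm38.p6. As 13 alternatives, the analysis was repeated with pseudocounts of 1 and 0.01, without a filter, with a mean of at least 1 RPKM, with median-ratio scaling, quantile normalization, limma without a trend, a gene-by-gene test, a replicate block, and with each of the 4 libraries left out.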

Additional observations from a re-analysis of the deposited data

How the results depend on the processing

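The 9 platelet genes kept a negative log2 fold change under each of the 9 alternatives with all libraries, except that with quantile normalization Gp1bb was at 0.10 and Gp9 at 0.0017. Their median lay between −0.94 and −0.85. The cause was not tested for any value that moved. Of the 9, 2 were lower at an unadjusted p under 0.05 in the gene-by-gene test, against 6. Over the whole table, the 4 genes lower after adjustment (p under 0.05) became 15 with log2(RPKM + 1), 2 with log2(RPKM + 0.01), 2 with a mean of at least 1 RPKM, and 0 with median-ratio scaling, 0 with quantile normalization, 0 in limma without a trend and 0 in the gene-by-gene test, where the unadjusted counts were 750, 714, 768 and 512. The 1 higher gene became 3 with log2(RPKM + 1), 0 in limma without a trend and 0 in the gene-by-gene test, where the unadjusted counts of higher genes were 346 and 348. The granule cargo median was −0.66 with log2(RPKM + 1), against −0.83, and the granulocyte median was −1.07 with no filter, against −2.11.

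With a replicate block, which pairs libraries of the same replicate number, 173 genes were lower and 83 higher at an adjusted p under 0.05, 1.46% of all genes being lower, and 3 of the 9 platelet genes were lower: Pf4 (adjusted p = 0.000534), Vwf (0.0116) and Itgb3 (0.0373). The correlation of deviations between libraries of the same number was −0.05434, and the labels state no pairing.

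Leaving out each library gave 190 to 1777 genes lower and 127 to 1367 higher at an unadjusted p under 0.05, and 0 to 653 lower and 1 to 336 higher at an adjusted p under 0.05. Of the 9 platelet genes, 3 to 7 were lower unadjusted and 0 to 6 adjusted. The medians ran from −0.64 to −0.42 for other surface receptors, −0.82 to −0.61 for granule cargo, −0.34 to −0.14 for thrombopoietin signalling, −0.35 to −0.14 for transcription factors, −0.80 to −0.49 for eicosanoid and nucleotide genes, −0.58 to −0.32 for the cytoskeleton, −2.23 to −1.09 for granulocyte, −3.47 to −1.89 for basophil and mast cell, −1.17 to −0.01 for monocyte and macrophage and −1.33 to −0.41 for stem and progenitor genes, and −0.04 to 1.82 for T and NK cell markers. Single genes ran from −0.10 to 0.01 (Gp1bb), −0.39 to 0.32 (Gp9), −0.45 to 0.17 (Myb), −0.18 to 0.15 (Cfl1) and −0.51 to 2.42 (Emr1). With 6100000 reads, JMJD1B-/- replicate 1 limits the low genes most.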
